A study of Mus musculus with 18 samples.

Results

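Ribosome-bound mRNA of cholinergic spinal cord neurons was compared between mice with and without the dominant P278KY allele of Gars, the gene of glycyl-tRNA synthetase. The comparison takes every library whose genotype label holds a Chat-Cre allele, 7 of the 18 libraries of the series. These are 3 libraries of genotype Rpl+/-;Chat+/-;P278KY+/- (P278KY) and 4 of genotype Rpl+/-;Chat+/-;P278KY+/+ (WT). Both groups thus share the heterozygous Chat-Cre and RiboTag alleles (haemagglutinin-tagged Rpl22), the labelled background B6;CASTxB6.129 and an age of 8 weeks. Whole cords were snap frozen, ribosomes were precipitated through the tag, and the mRNA on them was sequenced. Each library has its own mouse name, and sex is not labelled. Chat-Cre acts in all cholinergic neurons, not in motor neurons alone, and fewer labelled cells and less mRNA per cell cannot be told apart in such bulk samples. The 11 libraries without Cre (Chat+/+, 6 with and 5 without P278KY) carry the tag allele but no driver, and are used here as the background of the precipitation.

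Glycyl-tRNA synthetase loads glycine onto its tRNA in the cytosol and in mitochondria, and dominant variants of its gene cause an inherited axonal neuropathy of motor and sensory nerves. When tRNAs stay unloaded or ribosomes stall, the kinase GCN2 phosphorylates the initiation factor eIF2, which lowers general translation while the mRNA of the transcription factor ATF4 is translated more. ATF4 binds DNA together with C/EBP proteins at composite elements and raises the genes for amino acid synthesis, amino acid uptake and tRNA loading, a programme called the integrated stress response.

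The 7 libraries held 14659488 to 24028649 counts. Between 9.37% and 30.05% of them lay on 1 ribosomal RNA gene (Gm26924) and 63.6% to 87.02% on protein-coding genes. The index sequences in the labels start again within the series, so that at least 2 sets of libraries were indexed separately. The 3 P278KY libraries and WT replicates 1 and 2 belong to the first set (called pool 1 here), and WT replicates 3 and 4 belong to the second (pool 2). On the first principal component (31.1% of the variance) the pool 2 libraries lay at 63.8 and 67 and the other 5 between -43 and -3.2. On the second (29%) the P278KY libraries lay at 42.5 to 43.6 and the WT libraries at -67.7 to -8.2. Xist, the RNA of the inactive X chromosome, read 0, 90.6 and 157 CPM (counts scaled to 1000000 per library) in P278KY, 0.333 and 0.0828 CPM in the pool 1 WT libraries and 43.1 and 67.7 CPM in pool 2, so the WT pairs differ by pool and by this marker together. Results are therefore given for all 7 libraries and, beside them, for the 5 of pool 1, and the fits share these 5 libraries. Pool 1 does not hold Xist constant either, since P278KY replicates 2 and 3 read high and both its WT libraries near 0. Values per library are always in the order of replicates 1 to 3 for P278KY and 1 to 4 for WT, in CPM after trimmed-mean (TMM) scaling. Log2 fold changes are P278KY over WT with their standard error.

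The composite element that ATF4 and C/EBP proteins bind has the core TGATGNAA, and its letters were searched on both strands from 250 bases before to 50 bases after the start of each gene (RefSeq, GRCm38.p6). Of the 179 genes higher in P278KY, 137 had such a window and 26 of these windows held the core (19%). Among the 163 lower genes it was in 2 of 105 windows (1.9%), those of Dffa and Npc1l1, and among all genes tested in 287 of 10458 (2.74%). Over the whole promoter table of 27025 windows the share was 4.51%. Among higher genes outside the 7 lists of stress and amino acid genes used below it was in 14 of 108 (13%). The form TGATGCAA, which is 1 case of this core, was in 13 of the 137 windows of higher genes (9.49%), in 0 of the 105 of lower genes and in 72 of the 10458 (0.688%). Other stress elements had low shares. The cAMP response element TGACGTCA was in 2.19% of windows of higher genes, 2.86% of lower genes and 3.55% of all tested. The ER stress element, searched by its usual consensus, was in none of the 137 windows of higher genes and in 0.172% of all tested. A match is a description of letters and not a shown binding site. The stretches below, each on the strand of its gene with the core or its reverse complement in capitals, are from genes whose levels are given later: a secreted hormone (Fgf21), transcriptional regulators (Nupr1, Atf3), a glutathione-degrading enzyme (Chac1), enzymes of amino acid and carbon metabolism (Pycr1, Pck2, Asns, Got1), a promoter of cell death (Hrk), Gars itself and a sensory-neuron marker (Avil).
Fgf21, chr7:45615611-45615640, minus strand: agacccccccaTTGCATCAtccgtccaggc
Nupr1, chr7:126625562-126625591, minus strand: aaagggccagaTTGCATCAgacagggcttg
Atf3, chr1:191183425-191183454, minus strand: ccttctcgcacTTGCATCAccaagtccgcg
Chac1, chr2:119351038-119351067, plus strand: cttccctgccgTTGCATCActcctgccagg
Pycr1, chr11:120643833-120643862, minus strand: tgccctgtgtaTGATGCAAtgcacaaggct
Pck2, chr14:55540152-55540181, plus strand: agccttcaaagTTACATCAgtatcttacag
Asns, chr6:7693214-7693243, minus strand: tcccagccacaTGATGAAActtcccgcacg
Got1, chr19:43524689-43524718, minus strand: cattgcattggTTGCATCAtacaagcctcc
Hrk, chr5:118169639-118169668, plus strand: cccgggccggaTGATGTAAccccctccccg
Gars, chr6:55037960-55037989, plus strand: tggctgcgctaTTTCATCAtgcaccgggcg
Avil, chr10:127000681-127000710, plus strand: gaatgtggttaTGATGCAAacacaagcaaa
The cores in Fgf21, Nupr1, Atf3, Chac1, Pycr1, Got1 and Avil share the C form, read on one strand or the other. That of Fgf21 begins at position -139 from the start of the gene, those of Nupr1 and Atf3 both at -110, that of Chac1 at -193 and that of Gars at -30.

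Hormones and enzymes of the stress response and a set of genes that WT libraries barely showed were higher in P278KY, and the surface protein genes Cd24a and Itm2a and 4 genes of alpha and fast motor neurons were among the lower. With all 7 libraries, 342 of 14717 genes passed an adjusted p of 0.05 (2.32%), 179 higher (1.22%) and 163 lower (1.11%). The higher set held more of the very large changes: 37 rose and 11 fell at least 8-fold, 69 and 44 at least 4-fold, and 152 and 147 at least 2-fold. In pool 1 alone, 1343 of 14753 genes passed (9.1%), 634 higher (4.3%) and 709 lower (4.81%). The groups did not overlap in 2453 genes over all 7 libraries (16.7%) and in 6309 in pool 1 (42.8%). With all 7 libraries 87 of the 342 calls, 53 higher and 34 lower, were kept whichever library was left out. Without P278KY replicate 1, 2 or 3 the count was 95, 121 or 126, without WT replicate 1 to 4 it was 243, 324, 312 or 246, and scaling by library size alone gave 148. Among genes named below, the calls of Phgdh, Got1, Slc1a4, Iars, Tars, Eprs, Eef1a1, Ero1l, Rbfox3, Vipr2, Foxp1, Ina, Tubb6, Cdkn1a, Hrk, Adcyap1, Penk, Bdnf, Vegfa, Lifr, B2m, Hist1h2be, Prx, Pmp22, Cdh6 and Gsta4 were lost by library size alone (adjusted p = 0.0577 to 0.35), as were those of the channels in their own paragraph, and those of Nupr1, Phgdh, Got1, Cdkn1a, P2rx3 and Avil without the filter on low counts (0.0776 to 0.179). A fit of all 18 libraries lost the calls of Got1, Slc1a4, Tars, Cars, Hist1h2be, Vipr2, Bdnf, Kcnj14, Cacna2d1, Prx, Pmp22 and Cdh6. Their adjusted p there was 0.0536 to 0.437. The share of calls that were higher was 52.3% under TMM and 62.8% by library size alone, and in pool 1 it was 47.2% and 85.1%, where library size alone also moved the median of all genes from 0.04 to 0.37.

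**Figure D1:**
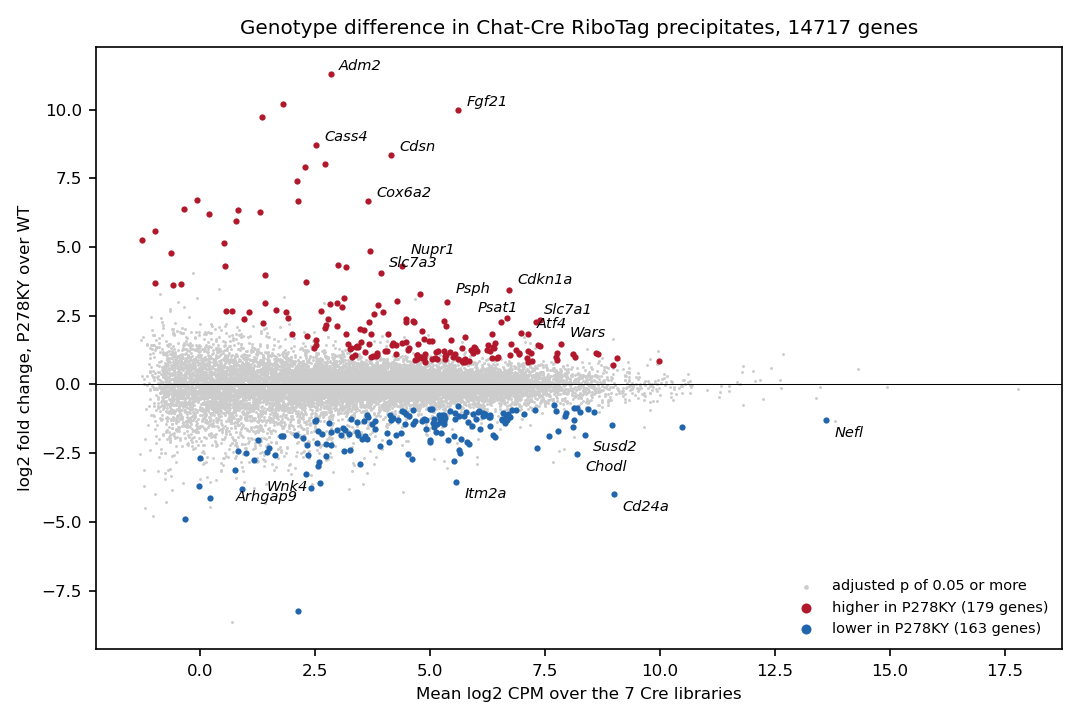
Mean log2 CPM over the 7 libraries (x axis) against the log2 fold change of P278KY over WT (y axis) for each of the 14717 genes tested, with 179 higher calls in red, 163 lower calls in blue and genes not called in grey. Adm2 and Fgf21 lie high among the rises, Cd24a and Itm2a low among the falls, and the called point near the lower edge is 1 of 2 identifiers of Sowahc, which is uncertain.

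The genes that carry the stress response were higher from its regulators to its secreted products. Of 11 regulators 6 rose and 0 fell (median log2 fold change 1.84, against -0.01 over all genes tested), and in pool 1 8 rose (median 1.45). Atf5, a relative of Atf4, read 32, 25.3 and 29 CPM in P278KY and 3.67, 3.15, 3.5 and 5.01 CPM in WT. Ddit3 (CHOP), which partners with it, read 33.7, 28.9 and 27.2 CPM against 4.13, 4.39, 6.52 and 4.23 CPM. Atf4 itself read 275, 198 and 242 CPM against 81.9, 92.8, 37.2 and 55 CPM. In each of these genes the lowest P278KY library stood well above the highest WT library, and the pool 2 WT libraries were the lower pair for Atf4 only. The log2 fold changes were 2.90 ± 0.23 for Atf5 (adjusted p = 0.000247), 2.63 ± 0.24 for Ddit3 (adjusted p = 0.000471) and 1.84 ± 0.30 for Atf4 (adjusted p = 0.0104). Nupr1, a small stress protein, read 45.2, 43.4 and 48.2 CPM against 0.866, 0.745, 1.47 and 5.9 CPM, with WT replicate 4 above the other WT libraries. Atf3 read 7.73, 6.66 and 1.97 CPM against 0.133, 0.414, 0.328 and 0.492 CPM. Chac1 read 65.4, 72.4 and 75.5 CPM against 29.8, 25.8, 14.1 and 23.4 CPM. None of these overlapped between the groups, and all rose (4.30 ± 0.64, 3.97 ± 0.59 and 1.61 ± 0.25; adjusted p = 0.0104, 0.00703 and 0.00799). Atf5 and Ddit3 stayed called whichever library was left out. The call of Nupr1 was also lost in the fit by mouse-name number (adjusted p = 0.0702). The calls of Atf4 (without P278KY replicate 1 or 3), Atf3 (without P278KY replicate 1), Nupr1 (without P278KY replicate 1 or 2 or WT replicate 3) and Chac1 (without P278KY replicate 3) were lost with adjusted p of 0.0501 to 0.0866. Trib3, an inhibitor of the pathway, read 0.688, 0.625 and 1.53 CPM against 0, 0, 0.0328 and 0.295 CPM and was not called with all 7 libraries (adjusted p = 0.138), while in pool 1 it was (0.0374). Cebpg, a binding partner of ATF4, had a log2 fold change of 0.96 (adjusted p = 0.122), and 1.44 in pool 1 (adjusted p = 0.00528).

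All 4 secreted factors of the response rose, and the 4 calls were kept whichever library was left out. Fgf21, a hormone of starvation, read 115, 77.3 and 147 CPM in P278KY and 0.2, 0.166, 0.0655 and 0.0492 CPM in WT (log2 fold change 9.99 ± 0.41, adjusted p = 3.87e-06). Adm2, a peptide of the calcitonin family, had 866 reads in the P278KY libraries together and 0 in WT, which makes it at least 409-fold higher with a floor of 3 reads over the WT group (adjusted p = 0.000471). Gdf15, which signals nausea and weight loss to the brainstem, had 609 reads in P278KY and 3 in WT (ratio 288, 95% counting interval 98 to 1400, adjusted p = 0.000471). These hormones were thus close to undetected in WT and clearly present in each P278KY library, 20.1, 9.83 and 19.4 CPM for Adm2 and 12.2, 10.5 and 10.4 CPM for Gdf15. Stc2, a secreted glycoprotein, was low but present in WT, 2.2, 1.99, 1.51 and 2.16 CPM, and read 16.8, 15.9 and 13.4 CPM in P278KY (log2 fold change 2.97 ± 0.26, adjusted p = 0.000382).

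Serine synthesis and the mitochondrial folate cycle, which together supply serine, glycine and one-carbon units, rose in 6 of 10 genes and fell in 0 (median 1.51). In pool 1 the count was 7 (median 1.65). Along the serine route, Phgdh, the first enzyme, read 64.7, 50.2 and 54.3 CPM in P278KY and 1.87, 1.82, 8.71 and 10.1 CPM in WT. Psat1, the second, read 303, 334 and 296 CPM against 40.6, 52.9, 83.8 and 67.3 CPM. Psph, the last, read 82.8, 73 and 91.6 CPM against 10.9, 11.3, 11.3 and 7.28 CPM. The groups were far apart in all 3, but Phgdh and Psat1 were higher in the pool 2 WT libraries than in those of pool 1, and Psph was not. Log2 fold changes were 3.29 ± 0.58 (adjusted p = 0.0228), 2.34 ± 0.24 (adjusted p = 0.000953) and 3.02 ± 0.21 (adjusted p = 9.38e-05), and in pool 1 that of Phgdh was 4.93. The mitochondrial enzymes that turn serine into glycine and formate followed, with Shmt2 at 50, 59.5 and 35.7 CPM against 11.3, 16.1, 9.82 and 13.7 CPM (log2 fold change 1.93 ± 0.24, adjusted p = 0.00291). Mthfd2 read 50.4, 49.1 and 50.9 CPM against 19.8, 16, 16.6 and 15.2 CPM (1.57 ± 0.17, adjusted p = 0.00146), and Mthfd1l 39, 39.7 and 46 CPM against 16.5, 17.7, 13.8 and 12.6 CPM (1.46 ± 0.19, adjusted p = 0.00369). The 6 calls were kept whichever library was left out except that of Phgdh, which was lost without any 1 of the P278KY libraries or without WT replicate 3 (adjusted p = 0.0645 to 0.108).

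Other enzymes of amino acid metabolism rose in 6 of 14 genes (median 0.49), and in pool 1 7 rose and 1 fell (median 0.55). Cth, which makes cysteine from cystathionine, read 22.1, 19.7 and 15.9 CPM in P278KY and 0.4, 1.9, 0.884 and 0.836 CPM in WT (log2 fold change 4.29 ± 0.42, adjusted p = 0.000713). Pycr1 and Aldh18a1, which make proline, read 13.1, 17.2 and 19.2 CPM against 1.87, 2.9, 1.6 and 3 CPM (2.82 ± 0.30, adjusted p = 0.00116) and 51.9, 52.6 and 37.8 CPM against 17.7, 15.6, 13.3 and 14.4 CPM (1.64 ± 0.20, adjusted p = 0.00226). Pck2, a mitochondrial enzyme that makes phosphoenolpyruvate, read 37.7, 36.7 and 32.6 CPM against 15.3, 13.3, 10.2 and 9.98 CPM (1.55 ± 0.21, adjusted p = 0.00427). In each of these the P278KY libraries exceeded every WT library, and the 4 calls were kept whichever library was left out. Smaller rises were found for asparagine synthetase, Asns, at 215, 220.2 and 204 CPM against 106, 101, 96.4 and 79.4 CPM (1.15 ± 0.17, adjusted p = 0.00644), and for the aspartate aminotransferase Got1, at 653, 599 and 673 CPM against 419, 395, 394 and 373 CPM (0.70 ± 0.16, adjusted p = 0.0486). The call of Asns was lost without P278KY replicate 1 (adjusted p = 0.0608) and that of Got1 without each of the 7 libraries in turn (0.0546 to 0.256).

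Amino acid uptake rose in 5 of 19 transporters with all 7 libraries (median 0.46) and in 11 of 18 in pool 1 (median 1.21). In the fit by mouse-name number, which in effect sets 2 P278KY libraries against the pool 2 WT pair, 5 rose and 1 fell (median -0.03). Among the carriers of cationic amino acids, Slc7a3 read 32.3, 33.5 and 31.9 CPM in P278KY and 1.73, 1.66, 2 and 2.41 CPM in WT. Slc7a1 read 323, 344 and 195 CPM against 70.2, 38.7, 74.6 and 55.6 CPM. The pair that forms the large neutral amino acid exchanger, Slc7a5 and its heavy chain Slc3a2, read 214, 176 and 122 CPM against 42.4, 31.6, 30.9 and 37.6 CPM and 185, 156 and 169.6 CPM against 62.9, 72.6, 53.5 and 59.8 CPM. No WT library reached the lowest P278KY library in any of them. Their log2 fold changes were 4.05 ± 0.22 (adjusted p = 3.44e-05) for Slc7a3, 2.27 ± 0.27 (0.00232) for Slc7a1, 2.26 ± 0.23 (0.000783) for Slc7a5 and 1.45 ± 0.17 (0.00216) for Slc3a2, and these 4 calls were kept whichever library was left out. Slc1a4, a carrier of serine and alanine, read 76.7, 72.1 and 51.1 CPM against 37, 35, 39.1 and 30.5 CPM (0.91 ± 0.20, adjusted p = 0.0432), a call lost without P278KY replicate 1 or 2 or WT replicate 1, 2 or 4 (0.0646 to 0.25). The cystine carrier Slc7a11, chosen after its values were seen, shows how the WT pools part: it read 17.6, 19.9 and 19.2 CPM in P278KY, 2.73 and 4.14 CPM in WT of pool 1 and 11.6 and 23.6 CPM in WT of pool 2, with a log2 fold change of 2.46 in pool 1 (adjusted p = 0.000488) and 0.83 over all 7 (adjusted p = 0.565). Of 11 genes that hold back mTORC1, the kinase complex that senses amino acids, 1 rose (2 in pool 1): Sesn2, a leucine sensor, at 45.5, 47.9 and 43 CPM against 10.8, 7.7, 8.29 and 9.78 CPM (2.31 ± 0.19, adjusted p = 0.000298, kept whichever library was left out).

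Among the 24 cytosolic tRNA synthetases 8 rose and 0 fell (median 0.62, 8 in pool 1 with a median of 0.36). The tryptophan enzyme Wars read 356, 359 and 379.8 CPM in P278KY and 172, 140.4, 104 and 106 CPM in WT (log2 fold change 1.49 ± 0.21, adjusted p = 0.00539), and its call was kept whichever library was left out. Gars read 306, 274 and 315 CPM against 179.5, 159.9, 134 and 120.2 CPM (1.01 ± 0.19, adjusted p = 0.0219; 0.81 in pool 1, adjusted p = 0.0247). Since the labels give a changed allele and not a loss of the gene, the level of Gars is no check of the genotype. Rars, Iars, Lars, Tars, Eprs and Cars rose by 1.31, 1.26, 1.23, 0.95, 0.85 and 1.19 on the log2 scale, with the groups apart in each. Their spread within WT again followed the pool: the mean log2 CPM of the list was 6.18 to 6.40 in P278KY, 5.96 and 5.88 in WT replicates 1 and 2 and 5.46 and 5.44 in replicates 3 and 4. The calls other than Wars were lost in some fits without 1 library (adjusted p = 0.0501 to 0.226), that of Gars without any 1 of the P278KY libraries or without WT replicate 4. None of the 17 mitochondrial synthetases was called (median -0.03), nor were any of 15 genes of eIF2 and its kinases or any of 15 ribosome rescue genes (in pool 1, 1 of the latter rose and 1 fell, and 2 of the former rose). Of 63 translation factors only the elongation factor Eef1a1 was called over all 7 libraries (2 rose and 1 fell in pool 1), at 420.2, 366 and 403 CPM against 164, 199, 179.5 and 246 CPM (1.01 ± 0.19, adjusted p = 0.0214). Leaving out any P278KY library or WT replicate 1 ended that call (0.0528 to 0.15).

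Ribosomal protein and respiratory chain genes moved with the choice of WT libraries rather than in one direction. Of 82 ribosomal protein genes none was called over all 7 libraries (median -0.12). Their mean log2 CPM was 5.65, 5.45 and 5.85 in P278KY, 6.04 and 6.34 in WT of pool 1 and 5.11 and 5.21 in WT of pool 2. The P278KY libraries thus lay between the WT pairs. Against the pool 1 pair 0 rose and 8 fell (median -0.52), and in the fit by mouse-name number 31 rose (median 0.62). The 77 respiratory chain genes did the same, with 1 rise over all 7 libraries (median -0.14), 1 rise and 17 falls in pool 1 (median -0.55) and 33 rises and 1 fall in the fit by mouse-name number (median 0.64). Of 37 proteasome genes none was called over all 7 libraries (median -0.08, and 0.03 by library size alone), 3 fell in pool 1 (-0.40) and 8 rose in the other fit (0.37). No direction is drawn for these lists. Of 19 glycolysis genes, 19 autophagy and lysosome genes, 30 genes of cholesterol and fatty acid synthesis and 13 genes encoded in mitochondria, none was called over all 7 libraries. In pool 1, 1 glycolysis and 1 autophagy gene fell, 6 cholesterol and fatty acid genes fell and 1 rose. The cholesterol and fatty acid list had a median of -0.28 (-0.33 in pool 1), and -0.34 to -0.23 under the alternatives. Of its 30 genes, 12 lay below WT without overlap and 1 above, against 1177 and 1276 of all 14717 tested. This small shift was not tested.

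**Figure D2:**
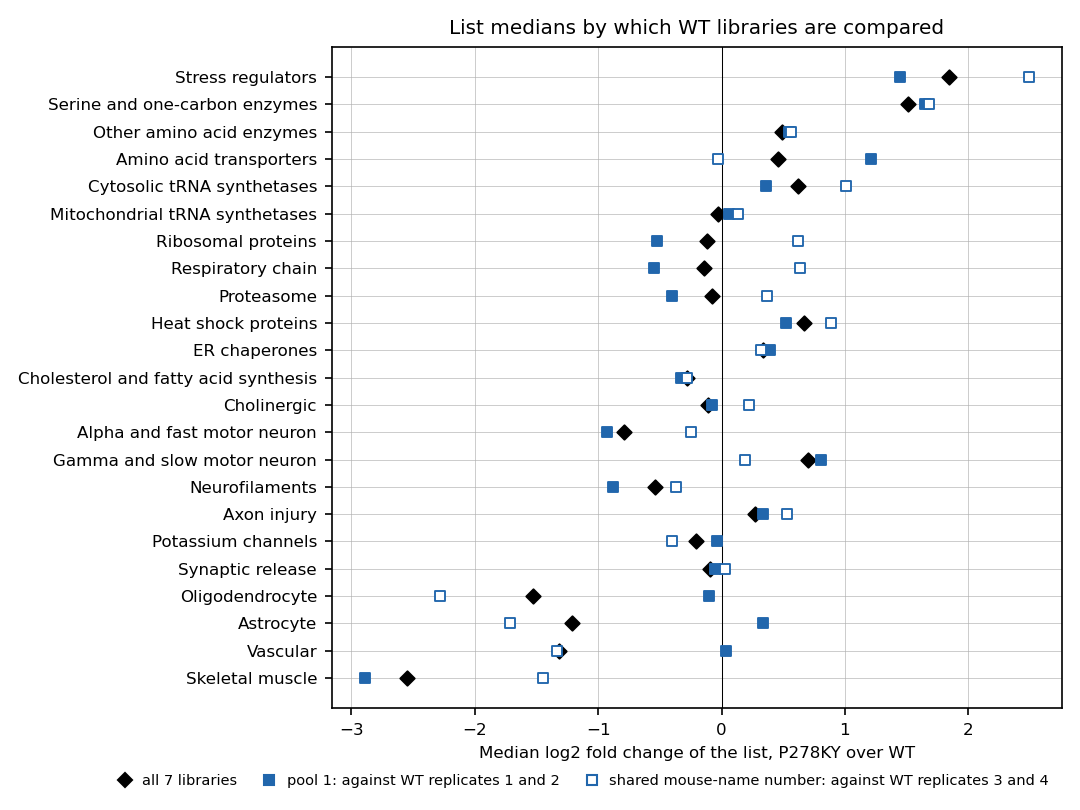
Median log2 fold change of P278KY over WT (x axis) for 23 gene lists (y axis), with black diamonds for all 7 libraries, filled blue squares for pool 1 (WT replicates 1 and 2) and open squares for the fit by mouse-name number (WT replicates 3 and 4). The stress and amino acid enzyme lists lie to the right in all 3 fits, whereas the ribosomal protein medians run from -0.52 to 0.62 and the oligodendrocyte median in the fit by mouse-name number is -2.28.

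The rises among protein folding genes included 3 of mitochondrial proteins. Of 19 heat shock genes 4 rose and 1 fell (median 0.67), in pool 1 3 and 3 (0.52), and of 23 ER chaperones and folding enzymes 1 rose (0.34), and 3 in pool 1. The mitochondrial protease Lonp1 read 76.6, 73.6 and 85.5 CPM in P278KY and 37.5, 35.3, 24 and 28.7 CPM in WT. The mitochondrial chaperone Hspa9 read 585, 530.3 and 588 CPM against 331, 279, 219 and 205 CPM. Its partner Hspe1 read 252, 239.7 and 291 CPM against 143, 126, 58.9 and 65.4 CPM. The pool 2 WT libraries were the lowest for these 3, and the groups did not overlap. Lonp1, Hspa9 and Hspe1 rose by 1.33, 1.14 and 1.41 on the log2 scale (adjusted p = 0.00734, 0.0181 and 0.0479). The cytosolic co-chaperone Dnaja1 rose by 0.86 (adjusted p = 0.0491, and 0.0539 in pool 1). The ER oxidase Ero1l read 147, 149.7 and 109 CPM against 51.5, 22.8, 56.8 and 56.6 CPM, with WT replicate 2 the lowest (log2 fold change 1.53 ± 0.30, adjusted p = 0.028). These 5 rises were each lost in some fits without 1 library (adjusted p = 0.0504 to 0.25). Cryab, a small heat shock protein, went the other way at 31.6, 34 and 33.8 CPM against 113, 110.2, 133 and 121 CPM (-1.85 ± 0.17, adjusted p = 0.000517), and that fall was kept whichever library was left out. Hspb1, its relative, read 166, 128 and 127 CPM against 299 and 307 CPM in pool 1 WT libraries and 108 and 153 CPM in pool 2, and was called lower in pool 1 (-1.11, adjusted p = 0.00635) and not over all 7 libraries (0.426).

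Several of the largest rises were in genes with almost no reads in WT, and they belong to different functions. Ostn, a secreted peptide known from bone and muscle, had 439 reads in P278KY and 0 in WT, at least 207-fold higher with a floor of 3 reads (adjusted p = 0.000953). Cass4, an adaptor of focal adhesions, had 735 reads in P278KY and 2 in WT (ratio 521, 95% counting interval 144 to 4310, adjusted p = 9.09e-05). Cdsn, an adhesion protein of the skin's outer layer, read 41.9, 40.4 and 41.2 CPM against 0.133, 0.166, 0 and 0.246 CPM. All 3 were thus plainly present in every P278KY library. Cox6a2, the heart and muscle form of a respiratory chain subunit and the rise among the respiratory genes above, read 26.6, 23.4 and 36.1 CPM against 0.133, 0.662, 0.131 and 0.295 CPM. Fev, a transcription factor of serotonin neurons, read 17.7, 13.4 and 14 CPM against 0, 0, 0 and 0.197 CPM. Log2 fold changes were 8.34 ± 0.51 (adjusted p = 6.99e-05) for Cdsn, 6.68 ± 0.46 (9.09e-05) for Cox6a2 and 8.01 ± 0.72 (0.000471) for Fev. Of the same kind were B4galnt2, a glycosyltransferase, Cyb5r2, a reductase, and Taf7l, a transcription factor subunit of the germ line. B4galnt2 read 8.68, 10.7 and 9.62 CPM in P278KY and at most 0.0828 CPM in any WT library, Cyb5r2 11.4, 9.03 and 8.89 CPM and at most 0.147 CPM, and Taf7l 4.76, 6.17 and 5.32 CPM and at most 0.166 CPM. These 8 calls, and those of the next paragraph, held whichever library was left out and in every other setting tried.

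Rises from a higher base included Ddr2, a collagen receptor, at 49.1, 43.1 and 23.3 CPM against 2.93, 2.98, 4.52 and 8.11 CPM, and Fam129a at 19.3, 17.8 and 15 CPM against 1.13, 2.15, 1.41 and 3.1 CPM (log2 fold changes 3.04 ± 0.40 and 3.15 ± 0.35, adjusted p = 0.00369 and 0.00146). A further 6 genes were picked with their values in view, because their calls held in every setting. Rcc2, a chromosome condensation factor, read 212, 199 and 229.8 CPM against 61.9, 52.5, 54.8 and 65.1 CPM. The splicing factor Tra2a read 129, 125 and 158 CPM against 42, 38.1, 29.8 and 43.1 CPM. Both had WT libraries within a narrow range in either pool, with log2 fold changes of 1.87 ± 0.17 (adjusted p = 0.000463) and 1.85 ± 0.19 (adjusted p = 0.000953). Dapk1, a kinase that promotes cell death, rose from 5.13, 7.2, 8.51 and 12.5 CPM in WT to 46, 42.1 and 33.4 CPM (log2 fold change 2.27 ± 0.29, adjusted p = 0.00311). Trim66 read 69.5, 81.7 and 67 CPM against 8.4, 13.7, 18.3 and 17.6 CPM (2.32 ± 0.26, adjusted p = 0.00175). Arhgef2, a microtubule-bound activator of the GTPase RhoA, and Glp1r, the receptor of the incretin hormone GLP-1, rose by 2.37 and 2.39 on the log2 scale (adjusted p = 0.00268 and 0.00393).

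The lower genes included several of the cell surface. Cd24a, a surface glycoprotein of young neurons and blood cells, read 65.4, 53.9 and 42.1 CPM in P278KY and 1082, 945, 661 and 731 CPM in WT. Itm2a, a membrane protein, read 5.72, 7.37 and 6.92 CPM against 100.4, 99.6, 54.3 and 57.4 CPM. Cd55, which shields cells from complement, read 14, 16.7 and 10.1 CPM against 85.9, 70.7, 85.7 and 64.8 CPM. The highest P278KY library was several-fold below the lowest WT library for each, and the pool 2 WT libraries were the lower pair for Cd24a and Itm2a but not for Cd55. The log2 fold changes were -3.99 ± 0.27 (adjusted p = 9.09e-05), -3.54 ± 0.30 (adjusted p = 0.000382) and -2.49 ± 0.23 (adjusted p = 0.000521). Wnk4, a kinase of ion transport, and Arhgap9, a GTPase-activating protein, fell from 13.2, 11.4, 7.53 and 7.62 CPM and 10.9, 7.78, 7.5 and 8.21 CPM in WT to 0.582, 0.893 and 1.02 CPM and 0.688, 0.715 and 0.437 CPM (-3.57 ± 0.38 and -3.77 ± 0.35). Pla2g3, a secreted phospholipase, Il1f9, a cytokine of the interleukin-1 family, and Angptl2, a secreted glycoprotein, had log2 fold changes of -2.89 ± 0.32, -2.81 ± 0.38 and -2.40 ± 0.33. Ighm, an immunoglobulin heavy chain gene, read 6.35, 17.6 and 6.85 CPM against 60.9, 79.5, 86.2 and 60.7 CPM (-2.80 ± 0.38, adjusted p = 0.00419). All these falls held whichever library was left out.

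Of 33 histone genes 3 fell and none rose (median -0.55), and in pool 1 8 of 34 fell and 1 rose (median -0.79). Hist1h2bc read 6.14, 6.79 and 5.68 CPM against 39.6, 43, 26.3 and 33.4 CPM, and Hist1h1c 5.13, 7.1 and 5.68 CPM against 32, 26.4, 19.9 and 22.8 CPM. The third was Hist1h2be, from 6.13, 4.64, 7.76 and 8.36 CPM in WT to 1.53, 1.65 and 2.04 CPM. The changes were, as log2 folds, -2.51 ± 0.24 (adjusted p = 0.000521), -2.08 ± 0.25 (0.00223) and -1.95 ± 0.34 (0.0163), and because histone genes are near copies of each other, reads shared between them make single members uncertain. The call of Hist1h2be was lost without P278KY replicate 1, 2 or 3 (adjusted p = 0.0598 to 0.112). A further 8 falls were picked with their values in view, because they held in every setting. Mest, an imprinted gene, read 55.9, 57.3 and 33.1 CPM against 249.2, 269, 244 and 215 CPM. Susd2 read 140, 142 and 122 CPM against 550.5, 566, 359.8 and 434 CPM. Dffa, the inhibitor of the nuclease that cuts DNA in apoptosis, read 92, 91.8 and 106 CPM against 279.9, 402, 282 and 283 CPM. WT replicate 2 was the highest for Dffa, and no groups overlapped in these 3. Log2 fold changes were -2.32 ± 0.23 (0.000818), -1.82 ± 0.21 (0.00206) and -1.69 ± 0.20 (0.00216), with the adjusted p in parentheses. Ano3 and Palmd, Lxn, the secreted guidance factor Sema3d and Plxdc1 had log2 fold changes of -2.39, -2.11, -1.92, -1.99 and -1.97.

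**Figure D3:**
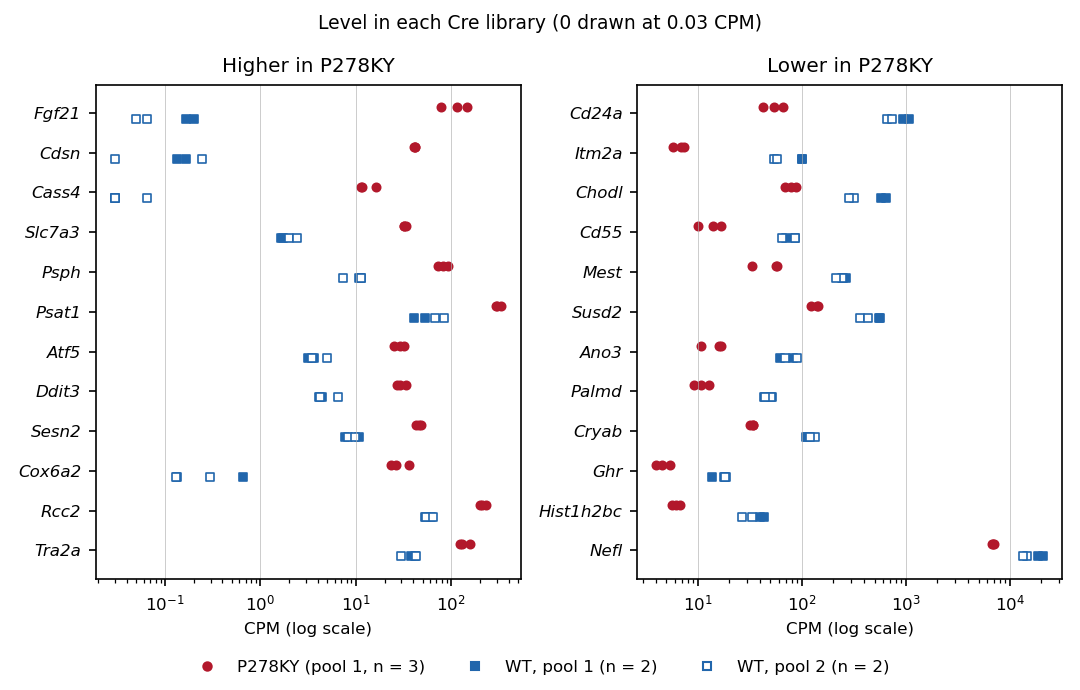
Level of 12 risen genes (left) and 12 fallen genes (right) in each of the 7 libraries, in CPM on a log axis with 0 drawn at 0.03. Red circles are P278KY, filled blue squares WT of pool 1 and open squares WT of pool 2; in each gene the red circles stand apart from all squares, and the WT pools lie apart for Cd24a, Chodl and Nefl.

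The libraries without Cre show where these levels lie against the background of the precipitation (CPM scaled over all 18 libraries in this paragraph, so values differ slightly). Of the 179 risen genes the P278KY Cre libraries were above every one of the 11 no-Cre libraries in 142 (79.3%), against 26.6% of all genes tested. The WT Cre libraries were above all no-Cre libraries in 34 of them (19%). For the 163 fallen genes this was reversed: the WT Cre libraries exceeded all no-Cre libraries in 104 (63.8%), against 22.8% of all genes tested, and the P278KY Cre libraries in 45 (27.6%, against 26.6% of all tested) while lying below all of them in 35 (21.5%, against 17.6%). The risen and fallen genes were picked by these same Cre libraries, so the choice itself partly fixes these shares, which are descriptions only. Cd24a read 615 to 1010 CPM in WT Cre libraries and 39.7 to 58.6 CPM in P278KY, within the no-Cre range of 34.7 to 86.6 CPM. Chodl remained above it, at 62.9 to 79.1 CPM in P278KY against 1.28 to 15.9 CPM without Cre. The no-Cre range joins both genotypes, which were apart for Chodl, at 1.28 to 3.65 CPM with P278KY and 8.17 to 15.9 CPM without. Without Cre, Chat was also lower with P278KY (1.93 to 3.58 against 5.87 to 12.9 CPM). Fgf21 was higher (0.0611 to 1.92 CPM against 0), and Cd24a overlapped. These differences between no-Cre genotypes were not tested here. Itm2a, at 5.12 to 6.73 CPM in P278KY, was below its no-Cre range of 13.9 to 26.5 CPM. Thus a fallen gene could end at, above or below the level of the no-Cre precipitates under this scaling. Mitochondrial ribosomal RNA held 24.2% to 53.8% of counts without Cre and 1.36% to 4.88% with Cre, so these positions rest on the scaling. Cryab, Ghr and Hist1h2bc also lay below every no-Cre library in P278KY. Of these, Hist1h2bc in WT Cre libraries was above the no-Cre range, while Cryab and Ghr only overlapped it. Wnk4, Il1f9, Angptl2, Sema3d, B2m and Kcnj2, given in other paragraphs, likewise overlapped it in WT and lay below it in P278KY. Phgdh and Trim66 began below the no-Cre range: WT Cre libraries read 1.74 to 8.82 and 7.85 to 17 CPM, no-Cre libraries 9.92 to 20.7 and 18.6 to 34.3 CPM, and P278KY Cre libraries 45.8 to 57.9 and 62.2 to 74.6 CPM. Vegfa, Foxp1, Scn2a1, Eef1a1 and Arhgef2 also began below that range, but their P278KY Cre libraries only overlapped it. Vegfa read 9.55 to 17.2 CPM in WT Cre, 18 to 31.9 CPM in no-Cre and 30.4 to 33.2 CPM in P278KY Cre libraries. Foxp1 read 14.6 to 19.8, 22.7 to 44.1 and 27.6 to 39.8 CPM in the same order.

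**Figure D4:**
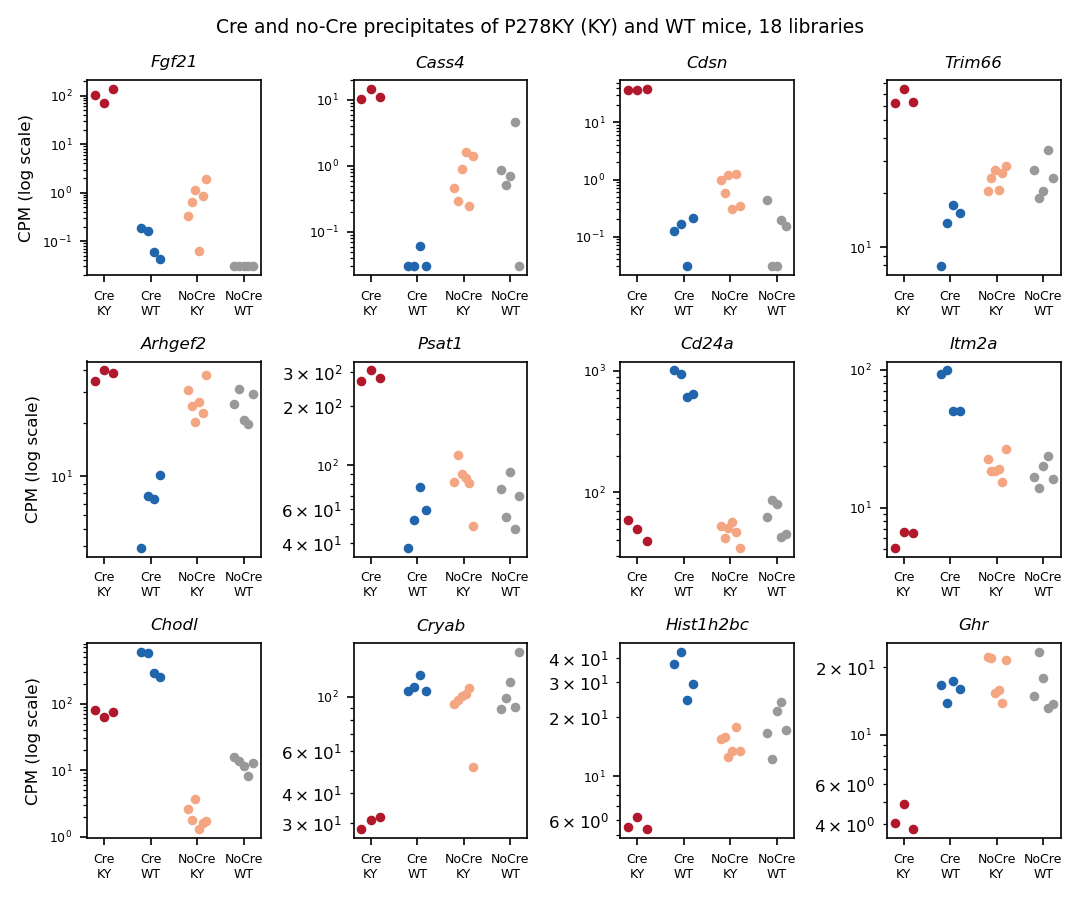
Level of 12 genes in CPM (log axis, 0 drawn at 0.03) in the 3 Cre P278KY, 4 Cre WT, 6 no-Cre P278KY and 5 no-Cre WT libraries, 1 point per library. Cd24a in Cre P278KY falls into the no-Cre range, Itm2a, Cryab, Ghr and Hist1h2bc fall below it, and Chodl stays above it.

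The labelled cell type was present in both groups, while 4 of 15 genes of alpha and fast motor neurons were lower in P278KY. Of 8 cholinergic genes none was called over all 7 libraries (median -0.11), with a mean log2 CPM of 5.86 to 6.15 in all 7, and 2 fell in pool 1. Chat read 134, 107 and 104 CPM against 159, 170, 87 and 100 CPM (log2 fold change -0.17 ± 0.26, adjusted p = 0.811), and Rpl22, which carries the tag, 38.9, 37.9 and 36.8 CPM against 41.7, 43.3, 25.4 and 28.9 CPM (0.12 ± 0.22, adjusted p = 0.842). Of the 15 alpha and fast genes none rose (median -0.79), in pool 1 9 fell and 1 rose (median -0.93), and in the fit by mouse-name number 6 fell and 1 rose (median -0.25). Chodl, a marker of fast motor neurons, read 88.4, 68.9 and 78.6 CPM against 641, 572, 315 and 283 CPM. Rbfox3 (NeuN), a splicing factor high in alpha motor neurons, read 72.5, 100 and 68.7 CPM against 165, 142, 186 and 186 CPM. Chodl was higher in the pool 1 WT pair and Rbfox3 was not, and in both the P278KY libraries lay below all WT libraries. On the log2 scale the changes were -2.53 ± 0.32 (adjusted p = 0.0032) and -1.08 ± 0.20 (0.0223), and the receptor gene Vipr2 had -1.34 ± 0.28 (0.0403). In pool 1 Calca, which encodes the peptide CGRP of motor neurons, also fell (-2.36, adjusted p = 0.00255; -1.90 and 0.0512 over all 7), as did its paralog Calcb (-1.26, 0.00468).

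Of 9 genes of gamma and slow motor neurons none was called over all 7 libraries (median 0.70), 2 rose in pool 1 (median 0.81), and 1 rose and 2 fell in the fit by mouse-name number (median 0.19). The rises in pool 1 were the nuclear receptors Esrrb (1.17, adjusted p = 0.0138) and Esrrg (1.14, 0.0329). Esrrb read 16.7, 16.7 and 18 CPM against 7.46, 7.7, 12.4 and 9.68 CPM, so its groups did not overlap, while over all 7 it missed the threshold (adjusted p = 0.0951). The difference between the alpha and gamma lists was not tested. Of 12 transcription factors of motor neurons 1 rose (in pool 1, 3 rose and 1 fell), Foxp1, which sets the identity of limb motor neurons, at 44.5, 41.7 and 29.4 CPM against 20, 14.7, 20.1 and 22.7 CPM (0.99 ± 0.22, adjusted p = 0.0486). The call of Chodl was kept whichever library was left out. For Rbfox3, Vipr2 and Foxp1 leaving out 1 library, P278KY replicate 1 and WT replicate 1 among them, gave adjusted p up to 0.253. Vipr2 also lost its call in the fit of all 18 libraries (adjusted p = 0.437).

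The neurofilament gene Nefl was lower and alpha-internexin was higher. Nefl, the light subunit, read 7048, 6787 and 6861 CPM in P278KY and 20700, 18820, 14630 and 13530 CPM in WT. The medium subunit gene Nefm read 7847, 6015 and 9071 CPM against 27050, 24420, 12030 and 14060 CPM, and the heavy subunit gene Nefh 2580, 2089 and 3095 CPM against 5717, 4755, 3239 and 3730 CPM. Ina, which encodes alpha-internexin, read 297, 306 and 278.5 CPM against 133, 174, 157 and 169 CPM. All P278KY libraries lay below all WT libraries in the first 3 and above them in Ina, and the pool 1 WT pair was the highest for the first 3. Nefl fell with a log2 fold change of -1.29 ± 0.21 (adjusted p = 0.0103) and Ina rose (0.89 ± 0.17, 0.0228). Nefm and Nefh missed the threshold over all 7 libraries (adjusted p = 0.0603 and 0.157) and passed it in pool 1 (-1.75 and -1.02, 0.000407 and 0.0122), and Nefm also in the fit by mouse-name number (-0.63, adjusted p = 0.0346). Of 19 tubulin and stathmin genes the beta-tubulin Tubb6, which neurons raise during axon growth, was the 1 rise, 34.7, 33.1 and 21.7 CPM against 7.8, 14, 11.8 and 10.7 CPM (1.43 ± 0.26, adjusted p = 0.0181), and of 28 motors and adaptors of axonal transport none was called. In pool 1, 1 of the tubulin and stathmin genes rose and 3 fell, and 4 of the transport genes fell. The calls of Nefl, Ina and Tubb6 were each lost without P278KY replicate 1 or 2, and those of Nefl and Ina also in some other such fits (adjusted p = 0.0545 to 0.161).

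Of 21 genes of axon injury 5 were higher and 0 lower (median 0.27), namely Atf3, Gap43, Cdkn1a, Adcyap1 and Nts, and of 18 genes of the p53 and cell death list 2 rose, Cdkn1a and Hrk (median 0.74). In pool 1, 6 of 20 rose and 1 fell in the first list and 4 of 18 rose in the second. Gap43, a growth cone protein, read 165, 135 and 161 CPM against 67.1, 88, 58.2 and 75.8 CPM. Cdkn1a (p21), a cell cycle inhibitor, read 271, 184 and 195 CPM in P278KY, 6.13 and 6.96 CPM in WT of pool 1 and 25.4 and 41.8 CPM in WT of pool 2. Hrk, which promotes cell death, read 10.2, 13.2 and 11.7 CPM against 3.07, 1.16, 1.77 and 4.38 CPM. None of these overlapped, and the spread within WT was wide for Cdkn1a and Hrk. Log2 fold changes were 1.09 ± 0.19 (adjusted p = 0.0163), 3.42 ± 0.67 (0.0444; 5.05 in pool 1) and 2.16 ± 0.41 (0.0241). The calls of Atf3, Gap43, Cdkn1a and Hrk were lost without P278KY replicate 1, and all but that of Atf3 in some other fits without 1 library (adjusted p = 0.0512 to 0.148). Jun, the first regulator to rise after nerve cut, read 117, 107 and 100 CPM against 99.7, 98.1, 67.6 and 92.2 CPM, with its groups just apart (log2 fold change 0.27, adjusted p = 0.52), and Sox11, Sprr1a, Ecel1 and Gal were not called.

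Transcripts of several secreted signals were higher. Of 22 neuropeptide genes 3 rose and 0 fell over all 7 libraries (median 0.11), and in pool 1 4 rose and 5 fell. Adcyap1, which encodes the trophic peptide PACAP, read 72.2, 34.3 and 54.9 CPM against 27.3, 19.5, 21.2 and 23.4 CPM. Neurotensin, Nts, read 134, 90.7 and 114 CPM against 61.9, 57.1, 31.8 and 41.2 CPM. Proenkephalin, Penk, read 186, 141 and 199 CPM against 74.5, 94.2, 60 and 96 CPM. The P278KY libraries were above all WT libraries in each, by a narrow margin for Adcyap1. Their log2 fold changes were 1.23 ± 0.25, 1.24 ± 0.25 and 1.11 ± 0.22 (adjusted p = 0.0354, 0.0355 and 0.0271). The neurotrophin gene Bdnf, the only rise among 17 immediate early and activity-regulated genes (median 0.77; 4 of 18 rose in pool 1), read 21.1, 18.6 and 13.5 CPM against 8.6, 4.39, 6.09 and 5.36 CPM (1.54 ± 0.28, adjusted p = 0.0193). Vegfa, whose product competes with mutant glycyl-tRNA synthetase for the receptor Nrp1, read 34, 36.4 and 34.6 CPM against 11.5, 17.3, 16.7 and 10.9 CPM (1.31 ± 0.22, adjusted p = 0.0128). These 5 calls were all lost without P278KY replicate 1, and each in some other such fits (adjusted p = 0.0529 to 0.223). Of the 5 genes, Vegfa alone overlapped the no-Cre libraries in P278KY, at 30.4 to 33.2 CPM against 18 to 31.9 CPM without Cre. Nrp1 itself read 41.5, 39 and 31 CPM against 36.5, 30, 40 and 45.6 CPM, a log2 fold change of -0.03, and Ntrk2, Ntrk3 and Hdac6, further reported partners of the mutant protein, were not called. Cdh6, a cadherin of the same list, fell from 24.7, 36.1, 27.2 and 22.4 CPM in WT to 13.3, 14.5 and 13 CPM (-1.02 ± 0.22, adjusted p = 0.0433).

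On the receiving side, 2 of 21 trophic factor receptor genes fell and 0 rose (median -0.19), in pool 1 2 and 1. Ghr, the growth hormone receptor, read 4.5, 5.36 and 4.01 CPM against 17.8, 13.8, 18.6 and 18.3 CPM (log2 fold change -1.89 ± 0.23, adjusted p = 0.00266, kept whichever library was left out). Lifr, the receptor of leukaemia inhibitory factor, read 152, 153 and 109 CPM against 292, 240.4, 297 and 259 CPM (-0.98 ± 0.19, 0.0287). B2m, the light chain of class I MHC and the only call among 16 interferon and MHC genes (2 of 14 fell in pool 1), read 31.2, 36.4 and 26.7 CPM against 67.2, 76.8, 66.8 and 68.7 CPM (-1.15 ± 0.18, 0.00985). WT libraries of both pools were close to each other in these genes, and all P278KY libraries were lower. Scaled over all 18 libraries, Ghr in WT Cre libraries (13.8 to 17.3 CPM) overlapped the no-Cre range (13.1 to 23.4 CPM). B2m did the same (60.1 to 76.4 CPM, no-Cre 40.4 to 75.1 CPM), while Lifr in WT was above its range (227 to 277 CPM, no-Cre 72 to 148 CPM). The calls of Lifr and B2m were lost in some fits without 1 library, P278KY replicates 1 and 3 among them (adjusted p = 0.0572 to 0.14).

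Of 64 potassium channel genes 4 fell and 0 rose (median -0.21), in pool 1 9 and 4. Kcnj2, an inward rectifier that sets the resting potential, read 3.86, 6.08 and 3.5 CPM against 14.6, 12.2, 21 and 23.7 CPM. Kcnj14, an inward rectifier of motor neurons, read 67.1, 63 and 55.4 CPM against 169.7, 151, 133 and 108 CPM. Kcnk9, a leak channel, read 48.5, 42.5 and 43 CPM against 119.7, 96.4, 75.8 and 84.9 CPM. With the transient current channel Kcnd1, at 21.5, 25.4 and 24 CPM against 57.1, 46.1, 45.4 and 56.1 CPM, these were below WT in every P278KY library. Their log2 fold changes were -1.99, -1.18, -1.08 and -1.11 (adjusted p = 0.0108, 0.0143, 0.0228 and 0.0114). Scaled over all 18 libraries, Kcnj2 in WT Cre libraries (12.1 to 20.8 CPM) overlapped the no-Cre range (7.72 to 20 CPM). Kcnj14, Kcnk9 and Kcnd1 in WT Cre libraries were above theirs. Of 34 sodium and calcium channel genes 4 rose and 0 fell (median -0.10), in pool 1 6 and 3. Scn2b, a sodium channel beta subunit, read 119.7, 112 and 116 CPM against 46.6, 52.2, 48.5 and 53.5 CPM (1.21 ± 0.16, 0.00346). Scn2a1, which encodes a pore-forming sodium channel subunit, read 57.2, 62.7 and 50.4 CPM against 25.7, 22.5, 33.2 and 28.6 CPM (1.04 ± 0.19, 0.0203). The calcium channel subunits Cacng3 and Cacna2d1 rose by 1.12 and 0.85 (adjusted p = 0.0403 and 0.0464). Of 55 neurotransmitter receptor genes 1 fell, Gabra2, a GABA-A receptor subunit, at 22.7, 23.6 and 21.1 CPM against 44.8, 58.5, 56.2 and 51.3 CPM (-1.23 ± 0.18, 0.00644), and of 30 genes of transmitter release none was called. In pool 1, 3 of the receptor genes rose and 4 fell, and 4 of the release genes rose and 2 fell. All 9 channel and receptor calls were lost when libraries were scaled by size alone (adjusted p = 0.055 to 0.317), and all but that of Scn2b without 1 library, P278KY replicate 1 among them (0.0502 to 0.252). Of 41 inherited neuropathy and motor neuron disease genes 1 fell, Nefl, and in pool 1 12 fell and 1 rose. Over all genes tested, 2.32% were called with 7 libraries, and in pool 1 4.3% rose and 4.81% fell. The single calls among the 55 receptor and 41 disease genes are near that share and say nothing particular about these lists.

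Transcripts of glia and meninges were highest in the WT libraries of pool 2, and no gene of the lists of oligodendrocytes, their precursors, astrocytes, microglia, vessels, ependyma, meninges, blood or muscle was called over all 7 libraries. The mean log2 CPM of 18 oligodendrocyte genes was 3.41, 3.80 and 4.31 in P278KY, 3.42 and 4.27 in WT of pool 1 and 6.10 and 6.18 in WT of pool 2. For 14 astrocyte genes it was 3.87, 3.90 and 4.51, then 3.51 and 4.18, then 5.96 and 5.97. For 12 meningeal genes it was 1.57, 1.85 and 2.62, then 1.62 and 2.39, then 4.14 and 5.73. The pool 2 WT libraries were thus the highest in all 3 lists and the pool 1 WT libraries overlapped P278KY. Among the defining markers, Mbp (myelin) read 305, 324 and 517 CPM in P278KY, 362 and 594 CPM in pool 1 WT, and 1510 and 1990 CPM in pool 2. Gfap (astrocytes) read 27.5, 32.7 and 45.7 CPM, then 19.7 and 38 CPM, then 146 and 169 CPM. The part of this difference between the pools in the 7-library results was not tested; the pool 1 values stand beside them for that reason. A list of 14 skeletal muscle genes was highest in WT replicate 2, with a mean log2 CPM of 3.51. It was 1.42, 1.70 and 1.57 in the other WT libraries and -0.25 to 0.34 in P278KY, so all WT libraries lay above P278KY. The median log2 fold change was -2.55 (-2.89 in pool 1), and -2.90 to -1.45 under the alternatives. The groups did not overlap in 8 of the 14 genes, all lower in P278KY, against 1177 such genes among the 14717 tested. In pool 1, 4 of the list fell.

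**Figure D5:**
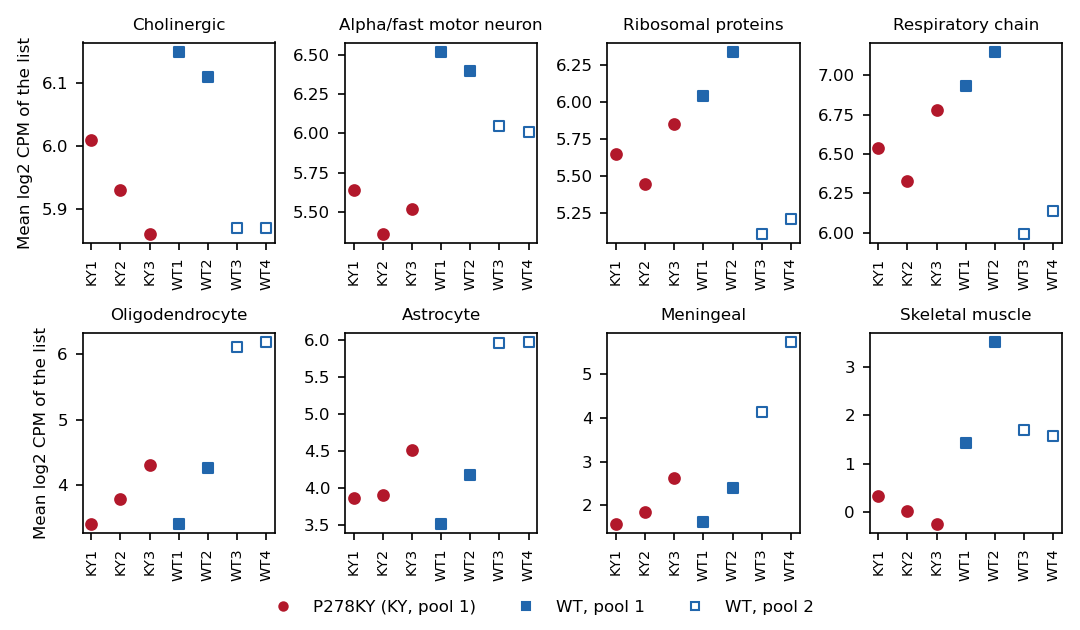
Mean log2 CPM of 8 gene lists (panels) in each of the 7 libraries, with red circles for P278KY, filled blue squares for WT of pool 1 and open squares for WT of pool 2. Cholinergic genes lie level in all 7 libraries, and alpha and fast motor neuron genes are lowest in the red circles. Ribosomal protein and respiratory chain genes put P278KY between the WT pools. Oligodendrocyte, astrocyte and meningeal genes are highest in pool 2. Muscle genes are lowest in the red circles and highest in WT replicate 2.

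Among markers of glia of the nerve and of sensory neurons there were calls. Of 9 Schwann cell genes 2 fell: Prx, which encodes periaxin of peripheral myelin, read 2.22, 2.99 and 4.08 CPM against 7.53, 8.94, 8.81 and 15.2 CPM, and Pmp22, another peripheral myelin gene, 186, 244 and 171 CPM against 341, 364, 342 and 397 CPM (log2 fold changes -1.71 ± 0.35 and -0.85 ± 0.19, adjusted p = 0.0338 and 0.0464). Of 13 targets of the redox regulator NRF2 1 fell, Gsta4, which detoxifies lipid aldehydes, at 11.1, 14.7 and 22.1 CPM against 32.5, 68.2, 59.2 and 57 CPM (-1.77 ± 0.31, adjusted p = 0.0176). Of 4 measured sensory neuron genes 2 rose, and in pool 1 2 rose and 1 fell. P2rx3, an ATP-gated channel, read 24.4, 38.2 and 22.6 CPM against 0.2, 0.166, 0.819 and 2.51 CPM, and Avil, which encodes the actin-binding protein advillin, 16.4, 17.3 and 18.4 CPM against 0.733, 0.414, 0.0655 and 2.16 CPM (4.86 ± 0.72 and 4.35 ± 0.76, adjusted p = 0.0102 and 0.0216). Pou4f1, also measured, overlapped between the groups, at 0.688, 0.849 and 2.99 CPM against 1.13, 0.248, 1.08 and 5.65 CPM. Some other sensory markers were at or near 0 in P278KY: Scn10a, Mrgprd and Prdm12 had no reads in any of the 3 libraries, and Trpv1 read 0.0529, 0 and 0 CPM. Of these, Mrgprd, Prdm12 and Trpv1 did not pass the filter on low counts. The WT libraries read 0.933, 0.911, 0.426 and 8.11 CPM of Scn10a, so that replicate 4 stood highest, and the part of sensory RNA in either direction was not tested. The call of Avil was lost with pool as a covariate (0.0501) and with the mouse-name number as a block (0.278). All 5 of these calls and that of Cdh6 were lost in some fits without 1 library, P278KY replicate 2 among them (adjusted p = 0.0511 to 0.246).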

How the data were processed

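RiboTag libraries of 18 spinal cords were sequenced, and the 7 with Chat-Cre were compared. For each of them the authors deposited expected counts and TPM (transcripts per 1000000) of 38924 Ensembl genes, in the format of RSEM gene results per the file headers. The submitters' processing notes name Bowtie2 2.2.0 and RSEM 1.2.12, and the genome build is not given in the sources used here. Of the deposited expected counts 83.0% to 87.4% per library were whole, and rounding changed library totals by 0.00096% at most. TPM as deposited entered no test. Positions are from GENCODE release M21 (GRCm38) and promoter windows from RefSeq (GRCm38.p6). Splitting counts of near-identical genes by RSEM can blur single members of a family.

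The test was edgeR's quasi-likelihood test (edgeR 4.0.16, R 4.3.3; filterByExpr, TMM scaling, robust dispersions), two-sided, with Benjamini-Hochberg adjustment across the genes of each fit and a threshold of 0.05, on all 7 libraries and on the 5 of pool 1. Every adjusted p is from it unless another tool is named. It was tested on simulated data with known changes and no difference between pools, so that check does not cover the pools. Log2 CPM per library used a prior count of 2. Folds against a group without reads use a floor of 3 counts over the group, and ratios with 1 to 3 counts carry 95% intervals that cover counting error only, since PCR reads are not independent molecules.

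Genes were named by rule: with a mean log2 CPM above 1, no overlap between groups and no predicted, clone, pseudogene, Xist or Y-linked name, the 20 largest rises and 20 largest falls over all 7 libraries and the 10 of each in pool 1, up to 8 members of each of 56 lists by smallest adjusted p, and Gars, Chat and Rpl22. Others are marked in the text, and the markers given for other cell types and the members of lists named as not called are descriptions. The genes, lists and rules were chosen with earlier results of these data known, and list members whose symbols the tables do not hold were later dropped or renamed. Lists carry counts and medians and no test, and some members counted in them are not reported here. Alternatives were another scaling (RLE, library size alone, library size without ribosomal RNA and mitochondrially encoded genes), other filters, DESeq2 1.42.0, voom of limma 3.58.1, no robust dispersions, each library left out, pool as a covariate, the number that begins the mouse name as a block, and a fit of all 18 libraries. Labels give no replicate numbers; those used here follow accession order and only name libraries. Nothing says that the mouse-name number marks a litter or day. Libraries of separate mice are the replicates.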

Additional observations from a re-analysis of the deposited data

Results flagged for a closer look

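In a group of 4 libraries a value was singled out when its gap to the nearest other, divided by the range, exceeded Dixon's critical ratio, which chance gives in about 1 of 20 groups; 116 genes and 56 lists were looked at in the WT group. WT replicate 2 stood apart for Iars, the isoleucine synthetase (53.9 CPM against 77.6 to 81.8 CPM in the other 3), for the ER oxidase Ero1l (22.8 CPM against 51.4 to 56.8 CPM), for the nuclease inhibitor Dffa (402 CPM against 280 to 283 CPM), for the mean log2 CPM of 19 glycolysis genes (7.79 against 7.46) and for that of 14 skeletal muscle genes (3.51 against 1.42 to 1.70). WT replicate 3 stood apart for Ddit3 (6.52 CPM against 4.13 to 4.39 CPM), for Cass4 (0.0655 CPM against 0) and for the mean log2 CPM of 19 tubulins and stathmins (8.5 against 8.97 to 8.99). WT replicate 4 stood apart for Nupr1 (5.9 CPM against 0.745 to 1.47 CPM), Gdf15 (0.148 CPM against 0), Fev (0.197 CPM against 0) and the serine phosphatase gene Psph (7.28 CPM against 10.9 to 11.3 CPM). The P278KY libraries lay outside the WT range, these values included, for each of the 9 genes. Named genes were mostly picked for a call or for groups that do not overlap, so this is no separate check. Where 3 of the 4 values are 0, as for Cass4, Gdf15 and Fev, the ratio always exceeds the critical value. The rate of 1 in 20 does not hold for them, and their single values rest on a few reads. At that rate, several of the 116 genes and 56 lists would be singled out by chance.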

How the results depend on the processing

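The count of genes called over all 7 libraries (342, 179 higher and 163 lower) became 148 (93 and 55) by library size alone, 972 (426 and 546) with DESeq2, 1343 (634 and 709) in pool 1, 1676 (801 and 875) with pool as a covariate and 1664 (789 and 875) with the mouse-name number as a replicate block. With 1 library left out it was 95 to 324 (56 to 156 higher and 39 to 169 lower). Under the other 7 settings it stayed within 1.5 times, from 303 (voom) to 447 (no filter on low counts). The pool 1 count (1343) became 2202 (1087 higher and 1115 lower) without the filter and 2068 (997 and 1071) with DESeq2. Library size alone gave 1116 higher and 195 lower there, leaving out ribosomal RNA and mitochondrial genes 1121 and 436, and with 1 library left out the count was 340 (without WT replicate 2) to 1627, with 155 to 807 higher and 185 to 820 lower. These pool 1 settings were chosen after seeing the data. For genes named in the text, 1896 of the alternative values kept direction and side of the threshold, 287 lost the call, 17 gained it and 4 reversed. The reversed values were those of Chat with the replicate block (0.35) and of Rpl22 without WT replicate 3 (-0.006, where leaving out single libraries gave up to 0.244), in pool 1 (-0.17) and with pool as a covariate (-0.17), none of them called. The cause of these changes was not tested. The block rests on a number shared by P278KY replicates 1 and 3 and WT replicates 3 and 4 and is not a pairing that the labels state; pool 2 holds no P278KY library, so within pool 2 there is no comparison. Of the 342 calls, 76 (48 higher and 28 lower) held under every one of the 19 alternatives. With 3 against 4 libraries an exact permutation test of a single value cannot go below 0.0571, and the 14659488 to 24028649 counts per library leave genes of a few reads uncertain.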

Other observations

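Sowahc, listed under 2 Ensembl identifiers, had its reads on one or the other in each library. All 3 Cre P278KY libraries, 4 no-Cre WT and 5 no-Cre P278KY libraries had them on ENSMUSG00000071286, and all 4 Cre WT libraries, 1 no-Cre WT and 1 no-Cre P278KY library on ENSMUSG00000098188. Both identifiers were called, in opposite directions, and the counts at this gene are uncertain.

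Around Gars the number of calls was small. On chromosome 6, which holds Gars, 17 of 719 genes tested were called (2.36%, against 2.32% of all genes), and within 10 Mb of Gars 3 of 92 (3.26%).

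Further genes with almost no reads in WT kept their calls in every setting: Steap1, a metal reductase (207 reads in P278KY and 3 in WT, ratio 97.8 with a 95% counting interval of 33 to 478), Akr1b7, an aldose reductase relative (129 and 2, ratio 91.4, interval 24.8 to 763), Hsd17b1, an enzyme of oestrogen synthesis (105 and 1, ratio 149, interval 26.1 to 5930), and Fut1, a fucosyltransferase (85 and 1, ratio 120, interval 21 to 4810).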
